A study of Mus musculus with 13 samples.

Results

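Granular layer keratinocytes are the last living cells of the epidermis, and 236 of the 97363 cell barcodes in 13 mouse skin libraries met a fixed rule for them. The members were chosen by their measured UMIs (unique molecular identifiers, each standing for 1 captured transcript). Cells of the E16.5 and P0 libraries were kept when they had 600 to 4800 detected genes at E16.5, or 900 to 7700 at P0, and no more than 10% of their UMIs were mitochondrial. A kept cell was called granular when Krt1 and Krt10 together reached 50 UMIs per 10,000, when at least 3 of Lor, Flg, Flg2, Hrnr, Ivl, Crct1 and Dkkl1 were detected, when those 7 genes summed to at least 20 UMIs per 10,000, and when Col1a1 and Col3a1 together had at most 2 UMIs. The cells just inside the threshold had sums of 20.1, 21.5 and 22.2 per 10,000, and those just outside had 19.9, 19.5 and 19.4. The other 3815 cells that passed the Krt1 and Krt10 level and the collagen limit served as the comparison within each library.

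All mice carried a C57BL/6 background. WT and KO (Grhl3-/-) embryos at E16.5 gave whole back skin, and WT and KO mice at P0 gave epidermis, with 2 libraries for each genotype and age on 10x Chromium v2 chemistry. One further WT P0 library was made with Chromium v1 chemistry and is called P0 WT v1 here. The study's methods describe littermates of 1 male and 1 female per genotype and time, and skin taken away from the open spine of the KO embryos. The UMIs of the Y-linked gene Ddx3y and of Xist, the RNA that silences one X chromosome in females, did not follow that description in the Krt1 and Krt10 rich cells. Both E16.5 WT libraries had 0 Ddx3y UMIs and 1008 and 2123 Xist UMIs, and the 4 P0 v2 libraries had 224 to 840 Ddx3y UMIs with 0 or 1 Xist UMI. E16.5 KO1 had 37 Ddx3y and 54 Xist UMIs, and E16.5 KO2 had 0 and 219. Library totals ran from 49245953 to 107038146 UMIs, and 5058 to 9157 cells were kept per library. Of the 236 granular barcodes, 15 also occurred in another library, and 0 were granular in both.

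In the granular layer, keratinocytes fill with keratohyalin granules of profilaggrin and loricrin and with lamellar granules that carry barrier lipids. The cell then cross-links envelope proteins beneath its membrane, loses its nucleus and becomes a dead corneocyte. Most of the envelope proteins are encoded together in the epidermal differentiation complex, a cluster of genes on mouse chromosome 3. GRHL3 is a transcription factor of the Grainyhead family known for its part in barrier formation.

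Of the 7 genes that defined the cells, 6 lie in that complex (GRCm38, GENCODE M21). Lor, which encodes loricrin, the most abundant envelope protein, spans chr3:92080271-92083142. Ivl, for the early scaffold protein involucrin, spans chr3:92570902-92573735, and Crct1 spans chr3:93014205-93015687. The 3 filaggrin-type genes lie side by side, with Flg2 at chr3:93197278-93221391, Flg (profilaggrin) at chr3:93273523-93293686 and Hrnr (hornerin) at chr3:93319749-93333570. Dkkl1, a secreted protein related to the Dickkopf family, lies apart at chr7:45207519-45212147.

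The sequence just upstream of these genes is shown because it is where shared control elements of genes that move together would be looked for. RefSeq start sites (GRCm38.p6) were found for 6 of the 7 genes, and the 250 bases before each start were searched on both strands for TGANTCA, the AP-1 element, for TATAAA, the TATA box, and for AACCGGTT, a Grainyhead-type element. The 4 stretches below are the last 130 bases before the start of Lor (chr3:92083143-92083272, minus strand), Flg (chr3:93273416-93273545, plus strand), Flg2 (chr3:93197143-93197272, plus strand) and Ivl (chr3:92573736-92573865, minus strand), written 5′ to 3′ with every match to TGANTCA or TATAAA in capitals.
Lor upstream bases: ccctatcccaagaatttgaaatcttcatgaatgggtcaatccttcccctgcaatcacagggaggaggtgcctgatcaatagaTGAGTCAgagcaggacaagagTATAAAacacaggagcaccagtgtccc
Flg upstream bases: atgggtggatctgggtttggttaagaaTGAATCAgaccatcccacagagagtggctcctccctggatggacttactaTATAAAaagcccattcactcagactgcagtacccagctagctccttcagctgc
Flg2 upstream bases: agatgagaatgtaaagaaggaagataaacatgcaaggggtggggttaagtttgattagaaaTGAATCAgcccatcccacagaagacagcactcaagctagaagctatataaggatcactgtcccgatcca
Ivl upstream bases: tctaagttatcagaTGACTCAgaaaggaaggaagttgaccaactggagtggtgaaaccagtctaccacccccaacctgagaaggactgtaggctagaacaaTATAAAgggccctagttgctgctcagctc
TGANTCA stood in 4 of the 6 genes searched, which are the 4 shown, and not in Hrnr or Dkkl1. It began 48 bases before the start of Lor, 103 before Flg, 69 before Flg2 and 116 before Ivl. It occurred in 6.75% of all 32851 RefSeq promoter windows of the same length. The base at N was G in Lor and C in Ivl, as in the AP-1 element itself, but A in Flg and Flg2. TATAAA began 27 bases before Lor, 53 before Flg, 31 before Hrnr and 29 before Ivl, against 12.37% of all windows. That exact string was not found for Flg2, whose stretch holds tatataag near its end, and variants were not searched. No match overlapped another in these windows. Neither TGANTCA nor TATAAA was found for Dkkl1, and AACCGGTT was found for none of the 6 and in 0.12% of all windows. A match is a description of letters and no evidence of binding.

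Grhl3 itself was measured in every library. In granular cells it had 0.618 and 0.576 UMIs per 10,000 in P0 WT1 and WT2, 0.438 in P0 WT v1 and 0.130 in P0 KO2. The 2 granular cells of P0 KO1 held 1 Grhl3 UMI between them, the 18 of E16.5 WT2 held 8, the 3 of E16.5 WT1 held 0, and the single cell of E16.5 KO1 held 2. Grhl3 UMIs were thus present in KO libraries. They are tags at the 3′ end of the transcript and the deleted stretch is not given in the sources used here, so they do not check the genotype.

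Most granular cells came from WT skin at P0. P0 WT1 held 93 of 875 Krt1 and Krt10 rich cells, or 10.6% (95% exact binomial interval 8.66 to 12.9), and P0 WT2 held 72 of 886, or 8.13% (6.41 to 10.1). P0 KO1 held 2 of 396, or 0.505% (0.0612 to 1.81), and P0 KO2 held 17 of 353, or 4.82% (2.83 to 7.599). Both KO libraries lay under both v2 WT libraries, but P0 WT v1, with 30 of 1137 or 2.64%, lay between the KO libraries. The v2 difference was -6.72 percentage points (KO minus WT) with an exact two-sided permutation p of 0.3333, the smallest that 2 libraries against 2 can give. With P0 WT v1 added to WT it was -4.47 points and p was 0.3 by the same exact test. At E16.5 the shares were 3.00% (3 of 100) and 9.09% (18 of 198) in WT, and 1.33% (1 of 75) and 0 of 31 in KO, which allows a share of up to 9.68% if 3 counts is taken as the limit for a count of 0 and up to 11.2% by the 95% exact interval. The E16.5 difference was -5.38 points, again with an exact permutation p of 0.3333, and it was -9.45 points without the collagen limit, which alone had removed 33 and 44 granular cells of the E16.5 WT libraries and 1 of the KO libraries. That limit also set the size of the whole population at E16.5, which without it was 563 Krt1 and Krt10 rich cells in WT2 against 198 with it, and 154 against 75 in KO1. Intervals and limits cover counting error only.

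**Figure D1:**
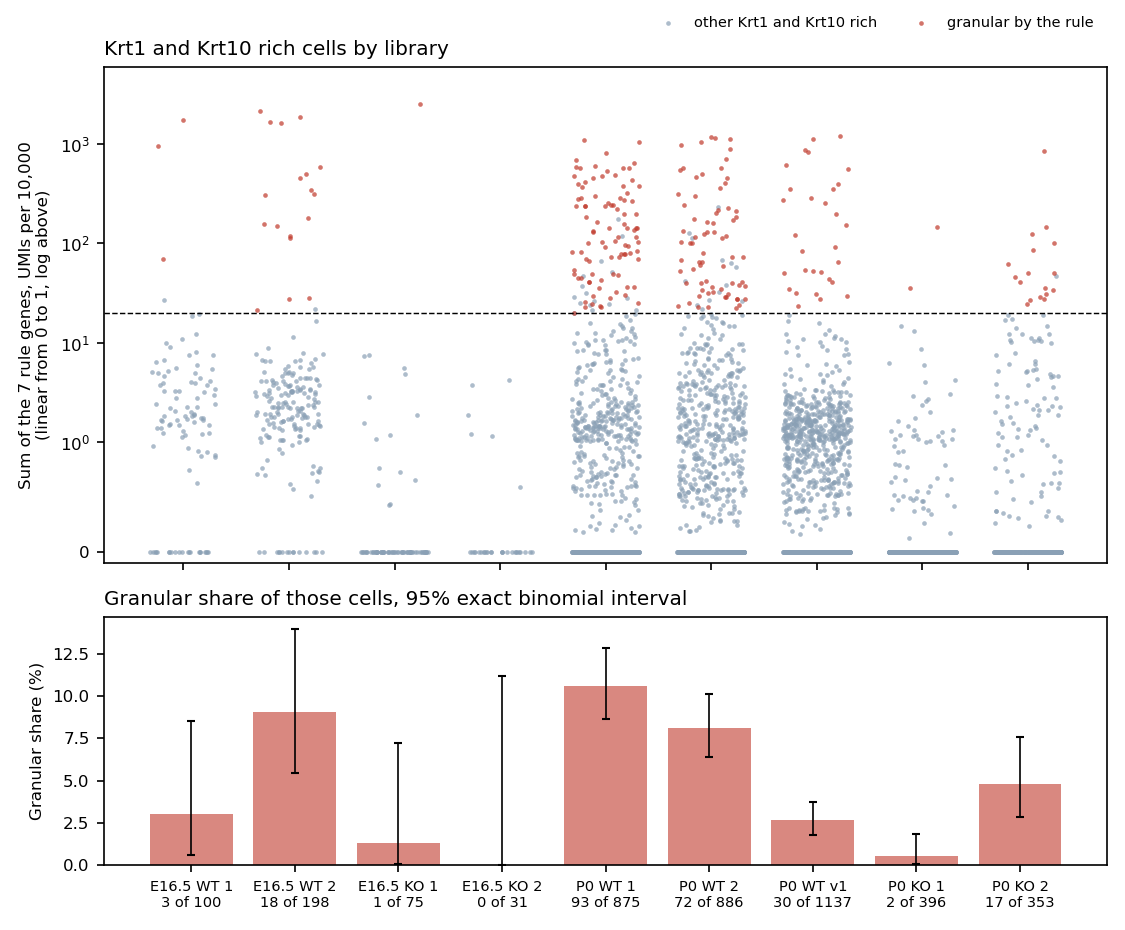
Top, sum of the 7 rule genes in each Krt1 and Krt10 rich cell (UMIs per 10,000, linear from 0 to 1 and logarithmic above), by library, with the threshold of 20 as a dashed line; grey points above the line had under 3 of the 7 genes. Bottom, granular share of those cells in percent with 95% exact binomial intervals, which is 10.6% and 8.13% in P0 WT1 and WT2 and 0.505% and 4.82% in P0 KO1 and KO2.

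Depth differed between these cells. Granular cells of P0 WT1 and WT2 had medians of 17065 and 22483.5 UMIs against 10157 and 14495.5 in the other Krt1 and Krt10 rich cells. In P0 KO2 the order was the opposite, with 5338 against 10062, and only 0.0723% of the UMIs of its median granular cell were mitochondrial, against 1.70% in its other cells. The granular cells of E16.5 WT1 and WT2 were also shallow, with medians of 2696 and 4482.5 UMIs. After each cell was thinned to 3000 UMIs, the mean share at P0 was 7.44% in WT and 2.37% in KO. Cells that carried the melanocyte markers Pmel, Dct and Mlana, which should lack envelope genes, held on average 2.97 and 3.997 UMIs per 10,000 of the 7 genes in P0 WT1 and WT2, 0.0488 and 0.0690 in P0 KO1 and KO2, and 12.2 in E16.5 WT2. Those averages include 12, 2 and 1 cells that the rule called granular in P0 WT1, P0 WT2 and E16.5 WT2. Over the cells with these markers that were not rich in Krt1 and Krt10, the level was 0.442 and 0.415 in P0 WT1 and WT2, 0.04996 and 0.0658 in P0 KO1 and KO2, 3.17 and 3.93 in E16.5 WT1 and WT2, and 0.149 and 0.0433 in E16.5 KO1 and KO2. All lay under the threshold of 20, and at both ages the WT level was above the KO level.

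The granular cells of the v2 WT libraries of the 2 ages differed in which envelope gene led, as a description of genes the rule had used. At P0, Flg supplied 71.0% and 58.0% of the 7-gene UMIs in WT1 and WT2, and Lor supplied 17.2% and 30.4%. At E16.5, Lor supplied 75.9% in WT1 and 69.6% in WT2, and Flg 6.77% and 2.62%. Flg exceeded Lor in 91 of 93 cells of P0 WT1 and in 64 of 72 of P0 WT2, and in 0 of the 22 granular cells of E16.5. P0 WT v1 differed from the v2 WT libraries of its age. Lor led its 7-gene UMIs at 51.4% with Flg at 39.9%, although Flg exceeded Lor in 16 of 30 cells. In P0 KO2, Flg exceeded Lor in 8 of 17 cells and supplied 24.98%, with Lor at 45.4%. The 2 cells of P0 KO1 were led by Flg, at 88.1% of 244 UMIs. Whole skin and epidermis were dissociated at different ages, and the Ddx3y and Xist UMIs given above also differed between the v2 WT libraries of the 2 ages. Age, tissue preparation and the sex that those UMIs mark therefore cannot be told apart.

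**Figure D2:**
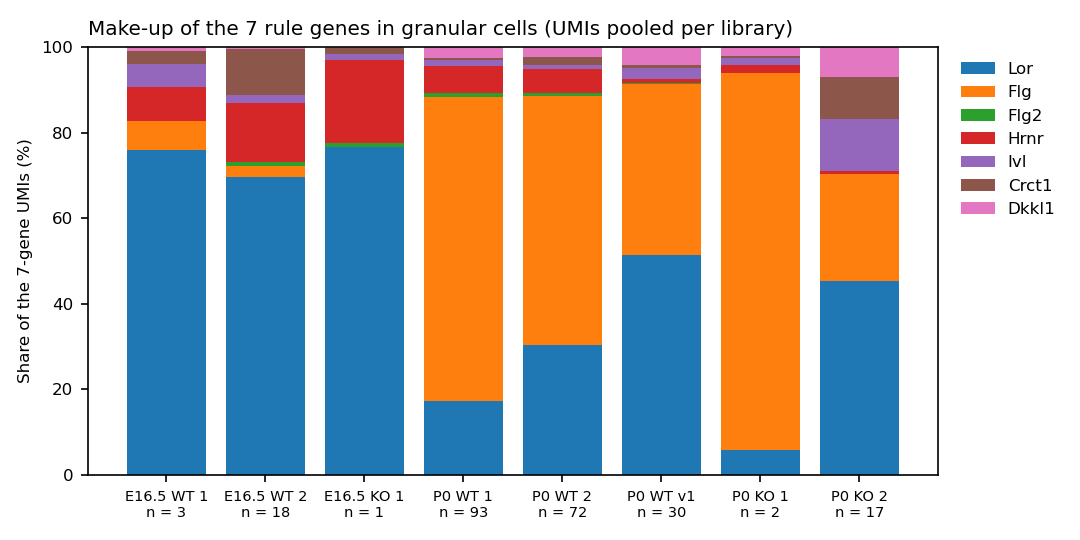
Share (%) of each rule gene in the 7-gene UMIs pooled over the granular cells of each library, with the number of cells (n) under each bar. Lor fills 69.6% to 76.6% of the bars at E16.5, while Flg fills 71.0% and 58.0% in P0 WT1 and WT2.

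Among themselves the 7 genes were far from evenly spread. Flg reached a pooled 165.9 and 148.6 UMIs per 10,000 in the granular cells of P0 WT1 and WT2, with medians over cells of 115.4 and 71.7. For Lor the pooled levels were 40.2 and 77.9 but the medians were 7.61 and 4.94, and single cells carried up to 463 and 652 per 10,000. Hrnr had 14.9 and 14.54 pooled and medians of 5.07 and 3.36. Dkkl1 was even, with 5.74 and 6.04 pooled and medians of 4.77 and 4.46. Ivl had 3.35 and 2.14, and Flg2 had 2.20 and 1.94. Crct1, at 1.24 and 4.95, was seen in only 16.1% and 30.6% of these cells. Krt1 and Krt10, the keratins of all suprabasal layers, stood at 262 and 258 (Krt1) and 395 and 383 (Krt10). Across cells of 1 library, Lor and Flg went together with a Spearman coefficient of 0.64 over 93 cells and 0.59 over 72 cells, and Flg and Hrnr with 0.66 and 0.70, where all points share the library and the normalization and the cells were chosen by these same genes.

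Several genes that the rule did not use differed along the 7-gene sum, and those named here ran in the same direction from the lowest to the highest tier in both P0 WT libraries. Cells were split at sums of 50, 100 and 200 per 10,000, which gave 23, 16, 18 and 36 cells in P0 WT1 and 25, 10, 15 and 22 in P0 WT2. Asprv1, the protease that cleaves profilaggrin, went from 10.6 to 19.1, 22.3 and 40.8 UMIs per 10,000 in P0 WT1 and from 11.9 to 13.1, 16.4 and 51.4 in P0 WT2. Cnfn (cornifelin, an envelope protein) went from 1.88 to 11.99 between the lowest and highest tier of P0 WT1 and from 4.45 to 14.46 in P0 WT2. Klk7, a protease of corneocyte shedding, went from 4.53 to 18.8 and from 3.76 to 17.0. Cdsn, for the corneodesmosome protein corneodesmosin, was at 0 and 0.113 in the lowest tier and at 2.48 and 6.46 in the highest. Tgm3, an epidermal transglutaminase, ran the other way, from 1.65 to 0.268 and from 1.63 to 0.328. The basal genes summed to 22.2 and 12.002 in the lowest tier and to 7.65 and 3.90 in the highest. In P0 WT v1, where the tiers held 8, 7, 3 and 12 cells, the basal sum went the other way, from 29.0 to 60.6. These values are pooled over cells of 1 library and carry no test.

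**Figure D3:**
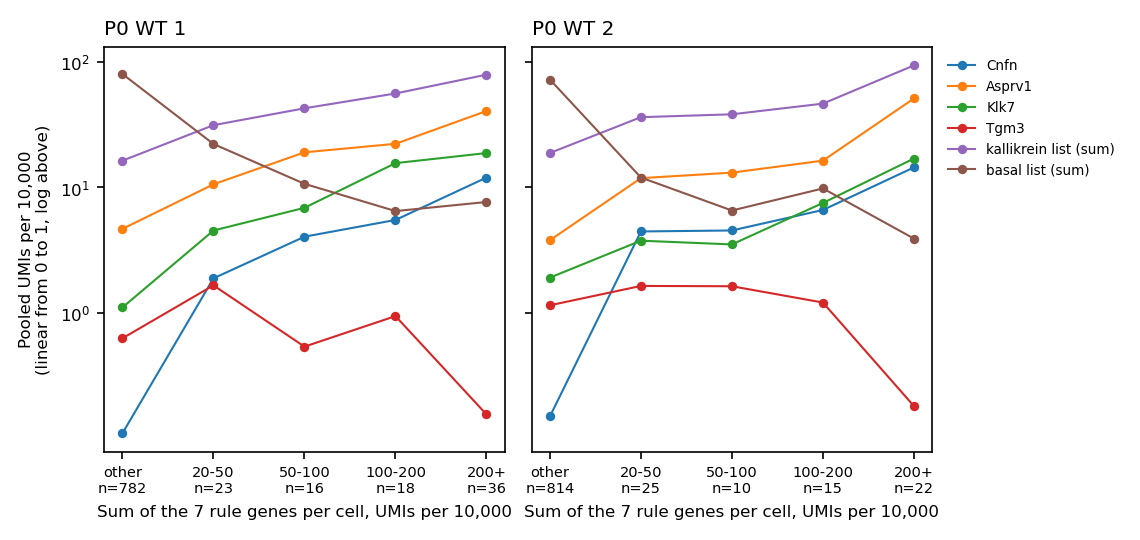
Pooled UMIs per 10,000 (linear from 0 to 1, logarithmic above) of 4 genes and 2 summed gene lists in P0 WT1 and P0 WT2, for the other Krt1 and Krt10 rich cells and for granular cells in 4 tiers of the 7-gene sum, with cell numbers (n). Asprv1 climbs to 40.8 and 51.4 in the highest tier while Tgm3 drops to 0.268 and 0.328.

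The Lce genes, which encode the late cornified envelope proteins, were concentrated in very few cells. Of 6277 Lce UMIs in the granular cells of P0 WT2, 6025 came from 1 cell with 37586 UMIs and a 7-gene sum of 973 per 10,000. In P0 WT1 the 93 cells held 15 Lce UMIs, with at most 2 in a cell. In E16.5 WT2, 1515 of 2046 Lce UMIs came from 1 cell, and in P0 KO2, 79 of 86. The single granular cell of E16.5 KO1 had the highest 7-gene sum of all, 2520 per 10,000, and supplied 981 of the 990 Lor UMIs and all but 1 of the 250 Hrnr UMIs among all Krt1 and Krt10 rich cells of its library.

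Markers of other cell types were present in part of the granular cells. In P0 WT1, 12 of 93 cells carried Pmel, Dct and Mlana, the melanocyte markers, against 2 of 72 in P0 WT2, and the summed melanocyte, Merkel and sebaceous list stood at 4.39 and 0.861 UMIs per 10,000. In P0 KO2, 2 of 17 cells carried Cd74, H2-Aa and Tyrobp. The granular cells of E16.5 WT2 were led by the haemoglobin gene Hbb-bs, with the blood list at 1491 per 10,000, against 0.0797 and 0.0756 in P0 WT1 and WT2. Their part in the results was not tested. Against the other Krt1 and Krt10 rich cells of P0 WT, 0 of 11 tested immune genes, 0 of 6 dermal genes and 0 of 4 melanocyte, Merkel and sebaceous genes were past the threshold upward, as were 2 of 14 follicle genes, 2 of 5 periderm genes and 1 of 1 blood gene, where 20.8% of all genes tested were past it upward. Of the granular layer markers outside the rule, some were high and some were not. Asprv1 was detected in 98.9% and 100% of the cells of P0 WT1 and WT2, Casp14 in 95.7% and 100% and Cnfn in 93.5% and 88.9%. In the other Krt1 and Krt10 rich cells the shares were 84.0% and 82.3% for Asprv1, 50.6% and 69.2% for Casp14 and 8.44% and 9.95% for Cnfn. Pooled Casp14, a protease of the cornifying cell, stood at 6.36 and 5.07 UMIs per 10,000 in granular cells and at 1.04 and 1.38 in the others, and Asprv1 at 26.8 and 26.3 against 4.67 and 3.79. Tgm3 was no higher in granular cells, at 0.797 and 1.0996 against 0.816 and 1.14, and Lce1a1 had 0 UMIs in the 93 granular cells of P0 WT1 and was seen in 6 of the 72 of P0 WT2.

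What the granular cells of P0 WT expressed beyond the rule was described against the other Krt1 and Krt10 rich cells of the same libraries. The rule itself divided these cells, so genes that go with the 7 differ by construction and no test is drawn from the contrast. Past an edgeR adjusted p of 0.05 lay 35.3% of 10789 genes, 20.8% higher and 14.4% lower. Wfdc21, a WAP domain protein, had 162 and 283 CPM (UMIs scaled to an equal total per library) in the granular cells of P0 WT1 and WT2 and 0.487 and 0.563 in the others. Serpina12 (vaspin, an inhibitor of KLK7) had 221 and 316 against 0.973 and 1.34. Cdsn had 129 and 279 against 0.779 and 1.41. Hal, the histidine ammonia-lyase that forms urocanic acid, had 784 and 829 against 23.3 and 25.6. Spink5, whose product restrains the epidermal kallikreins, had 1394 and 1725 against 77.5 and 46.7. Among genes past the threshold whose log2 CPM averaged 5 or more and whose groups did not overlap, Lypd5, Cnfn, Nccrp1, Homer2 and Serpinb7 completed the 10 largest positive ratios, with log2 ratios from 4.67 to 7.82. Wfdc21, Serpina12, Lypd5 and Cdsn were nearly absent from the other cells. They could pass the filter on low counts only through the granular cells, so their calls and their places among the 10 are no result. At the other end, by the same limits, stood Clca3a2 (17.0 and 14.965 against 288 and 336 CPM), the chemokine Ccl27a (12.9 and 9.26 against 175 and 103) and the long non-coding RNA H19 (41.2 and 23.5 against 437 and 345). The others were the basal keratins Krt15 and Krt5, the anchoring genes Itga6, Col17a1 and Dst, and Svil and Tgfbi, with log2 ratios from -3.10 to -2.67.

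By function, 14 of 15 tested kallikreins and their inhibitors were past the threshold upward, with a median log2 ratio of 2.79, where the median of all genes was -0.04. The 14 include Serpina12, which could pass the filter on low counts only through the granular cells. Klk7 had 12.9 and 9.01 UMIs per 10,000 against 1.10 and 1.90 in the other cells, and Klk8 had 7.86 and 7.96 against 1.41 and 1.58. Of 32 barrier lipid genes 29 were past it upward (median 1.71), led by the fatty acid elongase Elovl1 with 9.35 and 8.81 against 1.51 and 1.38. Elovl4, the elongase of very long ceramide fatty acids, had 7.75 and 7.87 against 2.92 and 3.28. Envelope cross-linking and filaggrin processing genes counted 12 of 15 (median 1.87). Blmh, a peptidase of filaggrin breakdown, had 8.72 and 9.27 against 1.96 and 1.99, and Cst6, a cystatin inhibitor of envelope proteases, had 8.51 and 7.85 against 2.50 and 3.39. Tight junction and connexin genes counted 12 of 18 up and 1 down (median 1.65). Spinous genes counted 11 of 14 up and 1 down (median 1.304), with Calm4, a calmodulin-like calcium binder, at 112 and 134 against 47.5 and 53.6, and Sbsn (suprabasin) at 37.3 and 39.7 against 7.79 and 9.39. Desmosome genes counted 10 up and 3 down of 14 (median 0.62), where the 10 include Cdsn, which has the same limit as Serpina12. All 18 basal genes were past it downward (median -2.35).

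Regulators were split. Of 30 late epidermal transcription factors 13 were past the threshold upward and 10 downward (median 0.10). Klf4, a barrier transcription factor, had 14.4 and 15.8 UMIs per 10,000 against 7.87 and 8.99, and Rora, a nuclear receptor, had 7.22 and 7.80 against 2.05 and 2.52. Genes of nuclear and organelle breakdown counted 11 of 18 up (median 0.49), stress keratins and Sprr genes 8 up and 2 down of 15 (median 0.71), dissociation stress genes 5 up and 4 down of 20 (median 0.04), and cell cycle genes 1 up and 2 down of 30 (median -0.12). Of 28 listed late envelope genes only 8 were tested, since the filter on low counts dropped 20. The 5 Lce genes among the 8 are nearly absent outside the granular cells of P0 WT2, so they could pass the filter only through the group where they are high, and no count is drawn from them. The per-library median of the 8 was 0.12 in P0 WT1 and 4.67 in P0 WT2 on the log2 scale with 10 CPM added, where the Lce UMIs of a single cell lay. The stretch of chromosome 3 from S100a1 to S100a10, chr3:90511034-93564643, which holds the differentiation complex, had 27 tested genes other than the rule's. These include the Lce genes, so no count or median is drawn from the stretch.

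**Figure D4:**
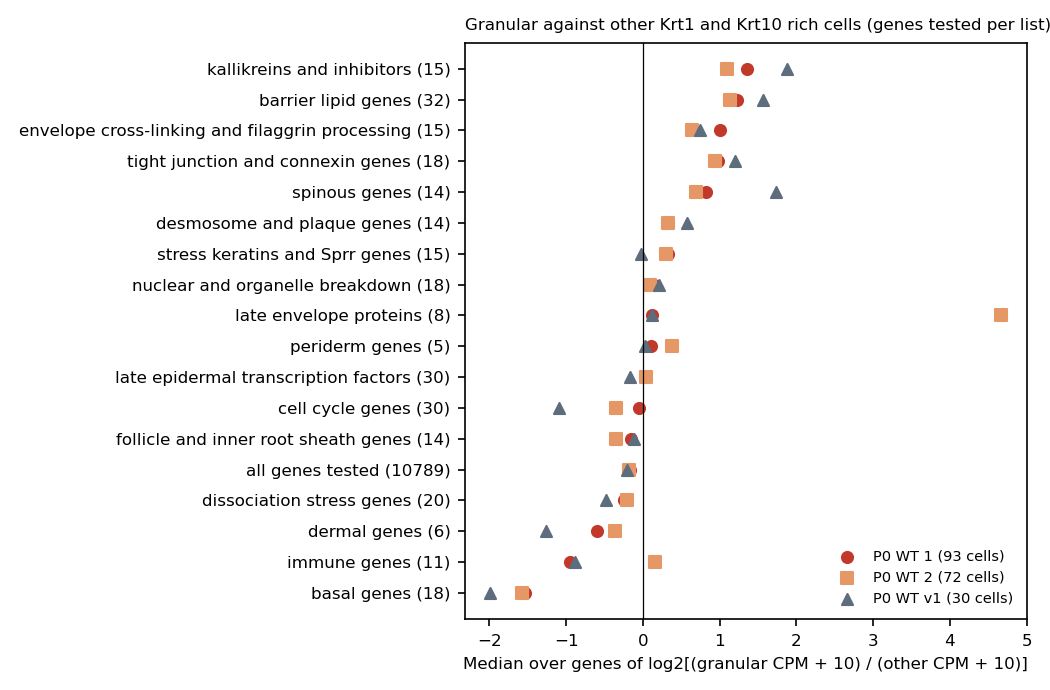
Median over the genes of each list of the log2 ratio of granular to other Krt1 and Krt10 rich cells (CPM with 10 added to each), for P0 WT1, P0 WT2 and P0 WT v1, with the number of genes tested beside each list. The 3 libraries lie at 1.36, 1.10 and 1.88 for kallikreins and at -1.54, -1.57 and -1.98 for basal genes, and P0 WT2 alone lies at 4.67 for late envelope proteins, where all genes tested lie at -0.16, -0.18 and -0.21.

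A test of Grhl3 loss within granular cells was not run, since the fit was set to use libraries with at least 20 such cells and only 2 of the 8 v2 libraries, both P0 WT, had them. The question of how the KO affected granular genes was therefore put to all Krt1 and Krt10 rich cells, granular or not, summed per library. That choice leaves the 7 genes free of the threshold, because a cell enters through Krt1 and Krt10 and the collagen limit, not through the 7. In such sums, fewer granular cells and less RNA per cell cannot be told apart. The fit called 18.6% of 10834 genes at P0, 8.93% higher and 9.71% lower in KO.

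Of the 7 genes, 4 fell at P0. Flg had 2607 and 2005 CPM in P0 WT1 and WT2 and 54.3 and 133 in P0 KO1 and KO2, a log2 change of -4.62 ± 0.35 (approximate SE, edgeR quasi-likelihood test, Benjamini-Hochberg adjusted p = 2.2e-05). Hrnr had 236 and 198 against 1.26 and 8.33 (-5.58 ± 1.06, edgeR adjusted p = 0.0046). Flg2 had 33.6 and 25.5 against 0.180 and 0.694, with 1 and 3 UMIs in the KO libraries (-6.09 ± 0.94, edgeR adjusted p = 0.0015). Dkkl1 had 123 and 115 against 5.77 and 34.2 (-2.60 ± 0.53, edgeR adjusted p = 0.0061). In each of these 4 genes both KO libraries lay below both WT libraries. DESeq2 called only Flg and Dkkl1 of the 4 and left Flg2 and Hrnr short of the threshold (adjusted p = 0.053 and 0.057). The other 3 did not pass. Lor had 611 and 1008 CPM against 9.92 and 138 (-3.47 ± 1.20, edgeR adjusted p = 0.064), Crct1 had 19.5 and 66.5 against 2.52 and 29.8 (-1.46 ± 0.90, 0.29) and Ivl had 55.1 and 38.5 against 1.26 and 41.4 (-1.17 ± 0.80, 0.34). The groups overlapped for Crct1 and Ivl, where P0 KO2 reached the WT range. Without P0 KO2 all 3 had an edgeR adjusted p under the threshold (0.012 for Lor, 0.030 for Crct1 and 2.6e-04 for Ivl), and without P0 KO1 they stood at -2.51 (0.15), -0.49 (0.73) and -0.13 (0.86). Each of these fits has a single KO library at P0, which is assumed to vary like the libraries of the other groups. Grhl3 tags fell from 25.9 and 24.6 to 7.75 and 11.8 CPM (-1.38 ± 0.25, edgeR adjusted p = 0.0033). With each cell thinned to 3000 UMIs, Dkkl1 was at -1.48 and Grhl3 at -0.87 and neither passed (edgeR adjusted p = 0.085 and 0.14).

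With the granular cells left out, the rule had shaped the 7-gene level of the remaining Krt1 and Krt10 rich cells, so their levels are a description with no test. Cells with a sum of at least 20 but under 3 of the 7 genes stayed among them. They numbered 15 in P0 WT1, 13 in P0 WT2, 0 in P0 KO1 and 1 in P0 KO2. Single remaining cells reached 168 and 228 Flg UMIs per 10,000 in P0 WT1 and WT2, and 9.88 and 47.3 in P0 KO1 and KO2. Flg stood at 1.42 and 1.39 UMIs per 10,000 in these cells of P0 WT1 and WT2 and at 0.151 and 0.605 in P0 KO1 and KO2. In the melanocyte-marker cells that were not rich in Krt1 and Krt10, where Flg UMIs are background, it stood at 0.281 and 0.158 in WT and at 0.0125 and 0.0105 in KO, so the background was also lower in KO, and its part in these levels was not tested.

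**Figure D5:**
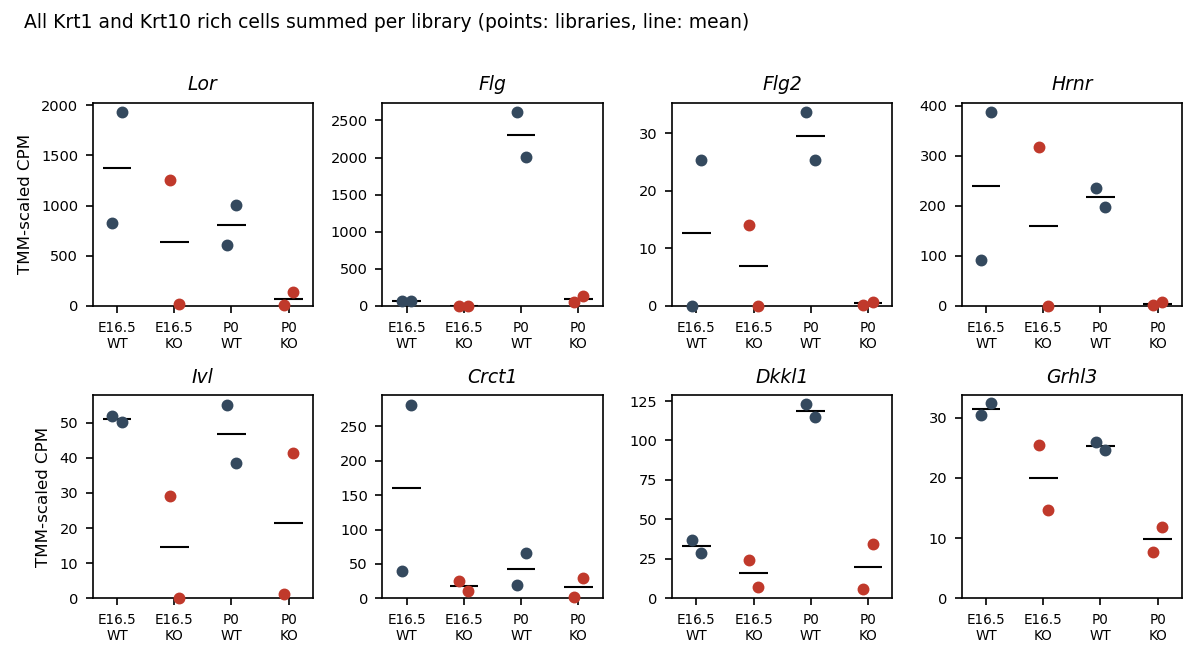
TMM-scaled CPM of the 7 rule genes and Grhl3 in all Krt1 and Krt10 rich cells summed per library, with 1 point per library and a line at the mean of 2. At P0 both KO points of Flg, Flg2, Hrnr and Dkkl1 lie under both WT points, and 1 KO point of Ivl reaches 41.4 beside 38.5 in WT2.

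Other gene groups high in granular cells were lower in KO in part. Of 32 barrier lipid genes 22 fell and 0 rose in KO (median log2 change -1.41, all genes -0.05), among them Elovl1 (-1.76, edgeR adjusted p = 8.4e-04), Elovl4 (-1.92, 0.0014) and Elovl7 (-2.15, 2.2e-04), while Them5 at -0.70 did not pass (0.15). Of 14 spinous genes 12 fell (median -1.75), with Sbsn at -2.09 (edgeR adjusted p = 0.0010) and Calm4 at -1.57 (0.0027). Desmosome genes counted 10 down and 2 up of 15, with Dsp (desmoplakin) at -1.07 (edgeR adjusted p = 0.0011) and Jup (plakoglobin) at -0.80 (0.0025). Tight junction and connexin genes counted 9 down and 2 up of 19, with the connexin gene Gjb5 at -2.18 (edgeR adjusted p = 0.0017). Without P0 WT2, where 4.90% of all genes fell and 4.76% rose, the tight junction count was 4 down and 0 up of 19, and the desmosome count 5 down and 1 up of 15. Without P0 KO1, where 8.0% of all genes fell and 8.75% rose, the tight junction count was 4 down and 2 up. With the granular cells left out, where 8.20% of all genes fell and 9.34% rose, the tight junction count was 4 down and 3 up of 18, against 21 of 31 barrier lipid, 12 of 14 spinous and 8 of 14 desmosome genes that fell. With each cell thinned to 3000 UMIs, where 5.84% of all genes fell and 6.64% rose, 5 of 12 tested spinous genes fell, and the tight junction count was 4 down and 1 up of 16.

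Kallikreins and inhibitors counted 5 down and 1 up of 14, with Klk7 at -2.17 (edgeR adjusted p = 8.6e-04) and Klk8 at -1.69 (7.9e-04) lower and Spink5 at -0.9996 (0.32) not called. Without P0 KO1 they counted 5 down and 3 up of 14, with the median at -0.19 in place of -0.76. Without P0 KO2, where 7.16% of all genes fell and 6.69% rose, they counted 7 down and 1 up of 13 with a median of -1.53, and with the granular cells left out 4 down and 1 up of 13 with a median of -0.30. Cross-linking and filaggrin processing genes counted 3 down and 0 up of 14, with Casp14 at -1.59 (edgeR adjusted p = 0.018) and Cst6 at -0.998 (0.014) lower, and Asprv1 at -0.43 (0.35) and Blmh at -0.77 (0.080) not called. Of 28 listed late envelope genes 17 were tested in this fit and 3 in a fit of the 4 P0 libraries alone. The Lce genes among them had most of their UMIs in single cells of P0 WT2 and E16.5 WT2, as given above, so no count of called genes is drawn from the list. Cross-linking genes counted 0 of 13 down without P0 WT2, 2 of 13 without P0 WT1, where 4.75% of all genes fell and 5.21% rose, and 6 of 13 without P0 KO2. Late transcription factors counted 10 down and 4 up of 31, with Klf4 at -1.37 (edgeR adjusted p = 0.0012) and Rora at -1.83 (1.0e-04). Breakdown genes counted 6 down and 1 up of 18, or 2 down of 17 without P0 WT2 and 3 down of 18 without P0 KO1. After thinning the late transcription factors counted 5 down and 3 up of 29, the breakdown genes 2 down of 17 and the cross-linking genes 2 down of 13. The chromosome 3 stretch that holds the differentiation complex had 45 tested genes in this fit. They include the Lce genes and the rule genes Lor, Ivl, Crct1, Flg2, Flg and Hrnr, so no count or median is drawn from the stretch. In the rest of chromosome 3, 47 of 521 fell and 49 rose, with a median of -0.09, where 9.71% of all genes fell and 8.93% rose.

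Stress keratins and Sprr genes rose in 13 of 20 cases and fell in 0 (median 3.32). Without P0 KO2 they counted 11 up and 2 down of 20 (median 1.84), and after thinning 8 up of 14 (median 1.86). Sprr2d, a small proline-rich envelope precursor, had 36.4 and 447 CPM in P0 KO1 and KO2 against 2.97 and 2.93 in WT (6.34 ± 0.996, edgeR adjusted p = 0.0016). Krt6a, a keratin of stressed and wounded epidermis, had 191 and 1564 against 21.8 and 32.8 (5.001 ± 0.75, 0.0013), and S100a8, an inflammatory calcium binder, had 50.5 and 157 against 2.37 and 0.367 (6.32 ± 1.33, 0.0076). Both KO libraries were high in each, with P0 KO2 the higher. Among called genes whose log2 CPM averaged 5 or more over the 8 libraries and whose groups did not overlap, these 3 and Krt6b, S100a9, Sprr2a3, Cdkn1c, Tpm2 and Gm5416 had the largest rises, with the other 6 at log2 changes of 3.48 to 6.32. The haemoglobin gene Hbb-bs came next by those limits, but it passed the limit on level through the E16.5 libraries (3354 to 26782 UMIs) and had 6 and 4 UMIs in P0 WT and 20 and 28 in P0 KO. Cell cycle genes rose in 21 of 30 (median 1.09), basal genes counted 2 up and 2 down of 18, and dissociation stress genes rose in 10 of 20, or in 6 without P0 WT1. Immune genes counted 2 up of 12, where 8.93% of all genes rose. With the 5% of cells with the highest doublet scores left out, they counted 8 up of 11, where 9.56% of all genes rose. The part of these lists in the fall of the envelope genes was not tested. Without P0 WT2 the cell cycle count was 9, and without P0 KO2 it was 12, in fits where 4.76% and 6.69% of all genes rose. After thinning it was 6 of 29, and dissociation stress genes rose in 4 of 20. Without P0 KO1 the basal count was 2 up and 5 down.

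The 2 basal genes that rose were the keratins of the basal layer. Krt14 had 6587 and 8391 CPM in P0 KO1 and KO2 against 1951 and 1738 in WT (2.02 ± 0.14, edgeR adjusted p = 1.8e-05), and Krt5 had 4167 and 2457 against 1900.2 and 1190.4 (1.10 ± 0.24, 0.0087). Outside the granular class the summed basal list stood at 181 and 133 UMIs per 10,000 in P0 KO1 and KO2. In P0 WT1 and WT2 it stood at 80.6 and 72.8. For Krt5 and Krt14 alone, the medians over cells were 84.3 and 18.1 in KO against 7.13 and 2.98 in WT. P0 WT v1 stood above all 4, at 237 for the list and at a median of 134.7 for Krt5 and Krt14. The part of this basal RNA in the fall of the envelope, lipid and spinous genes was not tested.

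By the limits on level and overlap given above, the largest falls after Hrnr and Flg were those of Ccer2, Skint9, Tppp3, Csnk2a2, Snhg9, Klk5, Acsbg1 and Pla2g4f, at log2 changes of -4.16 to -2.63. Klk5, the kallikrein that starts the shedding cascade, had 100 and 103 CPM in WT against 10.5 and 19.0, and Acsbg1, an acyl-CoA synthetase, had 115 and 158 against 12.3 and 32.2.

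At E16.5 the same fit called 0.00923% of genes, a single gene, S100a6, with 225 and 121 CPM in KO1 and KO2 against 39.5 and 31.2 in WT (2.40 ± 0.29, edgeR adjusted p = 0.030), which was not called without E16.5 WT1, without E16.5 WT2 or without E16.5 KO1. An unadjusted p under 0.05 was reached by 872 genes, and DESeq2 called 31. None of the 7 rule genes passed by edgeR. Flg came nearest, with 72.2 and 73.5 CPM in WT and 3.82 and 3.66 in KO (-4.26 ± 0.65, edgeR adjusted p = 0.081), counts of 64 and 165 UMIs against 3 and 1. Lor had 825 and 1929 CPM in WT and 1260 and 14.7 in KO, where nearly all of the first KO value came from 1 cell. The difference between the KO effects at P0 and E16.5 passed the edgeR threshold for 0.637% of genes, 0.498% with the higher effect at P0 and 0.138% with the lower, and for none of the 7 rule genes (1484 genes had an unadjusted p under 0.05). Hrnr came nearest among the 7, with a difference of -5.16 ± 1.35 (edgeR adjusted p = 0.11).

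The 17 granular cells of P0 KO2 are set beside those of WT with no test, since P0 KO1 had 2. Flg stood at 19.3 UMIs per 10,000 in P0 KO2 against 166 and 149 in P0 WT1 and WT2, Hrnr at 0.519 against 14.9 and 14.54, and Flg2 at 0 against 2.20 and 1.94. Lor stood at 35.0 against 40.2 and 77.9, but 276 of its 540 UMIs came from a single cell of 4887 UMIs, and without that cell it stood at 17.7. Of the 115 Crct1 UMIs, 73 came from that cell, and the level was 7.46 with it and 2.82 without it, against 1.24 and 4.95 in WT. Ivl stood at 9.41, or at 6.37 without that cell, above the 3.35 and 2.14 of WT. Dkkl1 at 5.45 lay just under the 5.74 and 6.04 of WT. Stfa3, a stefin family protease inhibitor, led these cells with 325 against 115 and 69.6. Sprr1b had 19.0 against 2.09 and 2.97, Sprr2d had 30.2 against 0.120 and 0.215, and Krt6a had 6.43 against 0.246 and 0.105. These 3 were also carried by few cells, since the cell with most of each gene's UMIs held 198 of 292 for Sprr1b, 430 of 465 for Sprr2d and 82 of 99 for Krt6a, and the levels without it were 6.76, 2.52 and 1.22. Cnfn had 22.7 against 7.13 and 8.30, whereas Asprv1 had 7.07 against 26.8 and 26.3 and Klk7 had 3.05 against 12.9 and 9.01. The medians over cells lay nearer for Cnfn, at 6.63 against 4.96 and 5.40, and were 5.68 against 20.8 and 17.4 for Asprv1. For Klk7 they were 0.465 against 8.99 and 5.04. The lowest tier held 9 of the 17 cells, against 23 of 93 and 25 of 72 in P0 WT1 and WT2, and these 3 genes differed along the tiers. The 17 cells came from 1 library, and their low depth and mitochondrial share, given above, go with these values.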

How the data were processed

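Single-cell RNA was measured in 13 mouse skin libraries, of which the 9 of E16.5 and P0 were used. The deposited matrices hold raw UMI counts per gene and barcode, not normalized by the authors, who aligned reads to mm10 and counted with Cell Ranger (version 1.3.1 in the submitters' processing notes, where Seurat is also named; the study's methods name a later version, so the version is not settled). The rule, the members and the gene lists were chosen with earlier results of these data known. UMIs were summed per library and class. The fit used edgeR 4.0.16 (quasi-likelihood, TMM, filterByExpr, Benjamini-Hochberg over all genes tested, threshold 0.05) in R 4.3.3, with DESeq2 1.42.0 as an alternative. Each value after ± is an approximate SE, the absolute log2 change divided by the square root of the quasi-likelihood F statistic. The granular contrast had the library as a block and left out the 11 rule genes. The fit on all Krt1 and Krt10 rich cells covered 8 v2 libraries with no block and left out Krt1, Krt10, Col1a1 and Col3a1, and was added after the granular cells had been counted. The methods name separate littermates, so a library was taken as a replicate. The Ddx3y and Xist UMIs given above did not follow those methods, and whether each library is 1 animal was not tested. The spread of 2 libraries per group limits every p. Shares were tested by exact permutation over libraries. Doublets were scored with Scrublet in scanpy 1.11.5, and the 5% of cells with the highest scores were left out as an alternative; 11 of 236 granular cells were among them. Named genes were the rule genes, Grhl3, up to 10 genes per direction with the largest change among those called whose log2 CPM averaged 5 or more and whose groups did not overlap, and up to 4 members per list with the highest level in granular cells of P0 WT; members of the late envelope list, Cdsn, Gjb5, Sprr2d and Krt6a beside P0 KO2 were named after their values were seen. On simulated data with 200 changed genes, the granular design recovered 69.8% of 2-fold and 84.8% of 4-fold changes, and the design for P0 KO against WT recovered 25.5% and 96.9%. The simulation gave all genes of a design the same spread and changed only genes above a limit on mean UMIs. These shares therefore do not describe genes carried by few cells. Values of some list members are not reported here.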

Additional observations from a re-analysis of the deposited data

Results flagged for a closer look

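The difference between the KO effects at P0 and at E16.5 in all Krt1 and Krt10 rich cells passed the edgeR threshold (adjusted p, interaction term) for 69 genes, 0.637% of those tested, 54 of them higher at P0. None of the 7 rule genes was among them. Of the genes named in the report, Cdkn1c, a cell cycle inhibitor, had an interaction of 4.66 on the log2 scale, Krt14 of 1.59, H19 of 1.57, Tppp3 of -5.01 and Elovl7 of -2.07. The count was 21 without E16.5 WT1, 8 without E16.5 WT2, 7 without E16.5 KO1, 25 without E16.5 KO2, 136 without P0 KO1 and 201 without P0 KO2. C1qa, C1qb and C1qc, macrophage genes, were among the 69, as were Ddx3y and Eif2s3y, which are Y-linked. These genes were singled out after their values were seen. Tissue preparation and the Xist UMIs also differed between the ages, so neither can be told apart from age in this difference.

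At E16.5, 77 cells of the 2 WT libraries met every criterion of the rule but the limit on Col1a1 and Col3a1 UMIs, against 1 cell of the 2 KO libraries. They are not among the members, and whether they are keratinocytes with dermal RNA was not tested.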

How the results depend on the processing

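Comparisons of granular cells between genotypes or ages, and every alternative listed for them, were not run because under 20 granular cells were found in 6 of the 8 v2 libraries. For granular against other cells of P0 WT, 3805 genes were called; DESeq2 called 1658, no replicate block 1890 and cells thinned to 3000 UMIs 878, with fewer genes tested. Leaving out 1 of its 2 libraries leaves no residual degrees of freedom, so no such test was made, and a fit of the libraries of that comparison only is the fit as reported. All 20 genes named there kept their direction and call in 180 alternative values. They had been chosen as the largest changes among called genes, and every alternative divided the cells by the rule genes. Their stability is therefore no check of the contrast.

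For P0 KO against WT the count was 2019, with 1052 after thinning, 326 with all libraries downsampled to equal totals, and 1019 (without P0 WT2) to 1761 without 1 library each, 1047 of them without P0 WT1. For E16.5 it was 1, with 31 by DESeq2, 166 without a filter, 34 in the 4 libraries of the age, 9 with the replicate block, 7 without granular cells and 0 to 7 without 1 library each. For the difference of effects it was 69, with 234 by DESeq2, 482 without a filter and 7 to 201 without 1 library each. The cause was not tested. Of 334 alternative values for 26 genes named at P0, 315 kept direction and call, 10 lost the call, 8 gained it and 1 reversed: Crct1, 0.41 after thinning (edgeR adjusted p = 0.85).

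Same-numbered libraries did not deviate together (correlations of -0.03 at E16.5 and -0.06 at P0 over 3665 genes), so the replicate block marks only a shared number. With the block, the P0 count was 1829, and Lor (edgeR adjusted p = 0.040) and Crct1 (0.044) passed. The share differences kept their sign in every alternative. For the share of Krt1 and Krt10 rich cells they ran from -8.87 to -4.47 percentage points at P0 and from -11.9 to -2.33 at E16.5. Leaving out 1 library each gave -8.87 to -4.56 at P0 and -8.42 to -2.33 at E16.5. With another denominator, all cells rich in Krt1 and Krt10 or in Krt5 and Krt14, the differences were -2.97 at P0 and -0.72 at E16.5. With all libraries at equal totals, 8 of 15 barrier lipid and 7 of 10 spinous genes fell and 1 of 19 cell cycle genes rose at P0, where 4.07% of all genes fell and 4.12% rose. Granular cells numbered 236, 165 of them in 2 libraries.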

Other observations

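Malat1, an RNA that stays in the nucleus, stood at 388 and 209 UMIs per 10,000 in the other Krt1 and Krt10 rich cells of P0 WT1 and WT2, and at 192 and 132 in their granular cells of the highest tier. In P0 WT v1 it was at 17.4 and 14.7. In P0 KO2 it was at 80.8 in the other cells, at 62.1 in the 9 granular cells of the lowest tier and at 2.28 and 0.812 in the 4 and 3 cells of the next tiers. At E16.5 the order differed between libraries, with 64.6 in the other cells and 202 in the highest tier of WT2 (10 cells), 70.5 and 151 in KO1 (1 cell), and 75.01 and 1.86 in WT1 (2 cells).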
